A study of Arabidopsis thaliana with 6 samples.

Results

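The genes described here run the plant cell cycle: cyclins of the A, B and D types, their cyclin-dependent kinases (CDKs), the switch that starts DNA replication, the factors that license and copy DNA, and a few proteins of mitosis and cytokinesis. They are 41 of the 31305 loci in the deposited table, taken by locus code for their known roles. By the stage at which each is known to act they form 4 classes, with 9 genes of G1/S control, 12 of S phase, 6 of G2 and 14 of mitosis. In the cycle, D-type cyclins and CDKA phosphorylate the retinoblastoma protein RBR1, which otherwise restrains the E2F factors that switch on replication genes. Licensing follows when CDC6 and CDT1 load the ring of MCM proteins, the replicative helicase, at replication origins, and PCNA then clamps the polymerase to DNA. A2-type cyclins with B1-type CDKs act around G2, and B-type cyclins with B2-type CDKs act in mitosis, where many genes are switched on through the MSA element bound by MYB3R factors.

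RNA was sequenced from callus, the proliferating mass of cells that a plant explant forms under auxin and cytokinin. The explants were hypocotyls of Arabidopsis thaliana seedlings 1 week old, kept for 7 days on callus-inducing medium. The 6 libraries comprised 3 labelled rap2.12-2 and 3 of the wild type Col-0, described as biological replicates, and both groups shared the medium, age and tissue. The labels name the allele rap2.12-2 of the ethylene response factor RAP2.12, which acts in the low-oxygen response, without describing the lesion.

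RAP2.12 transcript was higher in the libraries labelled rap2.12-2, at 359.6, 363 and 465 TPM, against 123, 140.0 and 161 TPM in Col-0 (log2 fold change 1.48, SE 0.17, limma adjusted p = 0.026), so each direction below is only that of libraries carrying this label. TPM, a transcript abundance that corrects for transcript length and library total, keeps no sequencing depth, so precision was read from how far libraries of a group differ. By its listed sum, Col-0 replicate 1 lay apart, at 845341 TPM, while the other 5 libraries summed to 984523 to 992724 TPM. The library labelled rap2.12-2 replicate 1 stood apart by transcript length: relative to the median of the other 5 libraries, its protein-coding genes had a median log2 deviation of 0.25 for transcripts of up to 1000 bases and of -0.80 for those over 3000 bases. In the other 5 libraries the medians of the length bins showed no such slope. They were low in every bin of Col-0 replicate 1 (-0.26 to -0.18) and lay between -0.03 and 0.10 in the rest. Organelle genes summed to 12005 TPM in Col-0 replicate 1 and to 157 to 537 TPM in the other libraries. Among callus and root stem cell markers, WOX5 (a stem cell factor of the root) was at 26.6, 25.8 and 26.2 TPM in libraries labelled rap2.12-2 and 26.7, 28.01 and 29.5 TPM in Col-0, WOX11 (a factor of callus founder cells) at 73.4, 103 and 130.4 TPM, against 193, 171 and 196 TPM in Col-0, and LBD29 was listed at 0 in replicate 1 of each genotype. PLT1 of the same list was at 85.0, 131 and 105 TPM in libraries labelled rap2.12-2, against 96.3, 117 and 116 TPM in Col-0. The log2 fold changes of PLT1, LBD16 and PLT2 were -0.05, 0.06 and 0.11.

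The 2 sequence elements of the background could be found upstream of many of these genes, and the E2F element was printed for the MCM genes because 5 of these 6 carry it. The windows ran from 250 bases before to 50 bases after the annotated gene start (RefSeq TAIR10.1), and both strands were searched for TTTCCCGC, TTTCGCGC, TTTGCCGC or TTTGGCGC. A match was found in 5 of 12 S-phase genes (41.67%), all of them MCM genes, in 2 of 9 G1/S genes (CYCD3;3 and RBR1), and in 0 of 6 G2 and 0 of 14 mitotic genes, against 483 of 27443 nuclear protein-coding genes (1.76%). The matches are the capitals in the stretches below, each written 5′ to 3′ on the strand of its gene, upstream of the annotated start. Where the capitals begin with GC, the element lies on the opposite strand.
MCM2 (chr1:16970174-16970213, plus strand): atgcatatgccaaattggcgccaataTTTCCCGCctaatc
MCM3 (chr5:18773843-18773902, minus strand): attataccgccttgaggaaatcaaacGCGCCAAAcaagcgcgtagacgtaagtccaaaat
MCM4 (chr2:7130731-7130790, minus strand): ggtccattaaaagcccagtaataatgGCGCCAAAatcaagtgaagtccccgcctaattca
MCM5 (chr2:3527501-3527545, minus strand): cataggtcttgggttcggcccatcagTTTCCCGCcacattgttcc
MCM6 (chr5:18010680-18010739, minus strand): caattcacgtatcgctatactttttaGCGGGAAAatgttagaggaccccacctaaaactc
The MCM2 and MCM5 elements read TTTCCCGC on the gene's own strand, and MCM6 carries the same letters on the opposite strand, while MCM3 and MCM4 carry TTTGGCGC there. Allowing 1 letter less (TTCCCGC or TTGGCGC, which also lie within the longer forms) raised the count to 8 of 12 S-phase genes (66.67%), adding CDT1A, PCNA1 and PCNA2, and left 0 of 14 mitotic genes, against 2.41% of all genes. The window of MCM7 holds neither the longer nor the shorter E2F form, and it holds an MSA core, described next, on the opposite strand at positions -21 to -17 from the start.

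The MSA core AACGG was printed for mitotic genes because it is repeated in several of them. It was found on either strand in 12 of 14 mitotic genes (85.71%), all but CYCB2;4 and CDKB2;1, against 4 of 12 S-phase genes (33.33%) and 24.65% of all genes. The longer CNAACGG, which contains the core, was found in 10 of 14 mitotic genes (71.43%) and 0 of 12 S-phase genes, against 5.52% of all genes. The capitals below mark the core, which reads CCGTT where it lies on the opposite strand.
CYCB1;1 (chr4:17624309-17624558, minus strand): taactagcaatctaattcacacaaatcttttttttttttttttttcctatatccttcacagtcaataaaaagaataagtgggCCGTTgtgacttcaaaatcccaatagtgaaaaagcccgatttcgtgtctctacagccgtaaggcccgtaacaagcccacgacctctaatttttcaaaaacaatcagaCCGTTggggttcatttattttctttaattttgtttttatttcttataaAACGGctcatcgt
CYCB1;2 (chr5:1861704-1861953, minus strand): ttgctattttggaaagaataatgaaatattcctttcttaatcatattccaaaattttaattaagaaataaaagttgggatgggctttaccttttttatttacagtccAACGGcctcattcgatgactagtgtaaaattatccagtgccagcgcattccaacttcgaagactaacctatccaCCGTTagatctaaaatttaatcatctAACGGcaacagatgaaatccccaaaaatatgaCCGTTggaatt
CDKB2;2 (chr1:7294804-7294863, minus strand): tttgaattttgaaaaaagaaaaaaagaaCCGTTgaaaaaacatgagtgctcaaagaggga
KNOLLE (chr1:2711001-2711040, minus strand): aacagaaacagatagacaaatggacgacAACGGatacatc
AUR1 (chr4:15842336-15842395, plus strand): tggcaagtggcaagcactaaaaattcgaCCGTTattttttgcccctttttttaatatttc
The 250 bases upstream of CYCB1;1 hold 3 cores and those of CYCB1;2 hold 4, while CDKB2;2 and AUR1 hold 1 each there. A match of letters is a description and was not tested as a binding site.

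**Figure D1:**
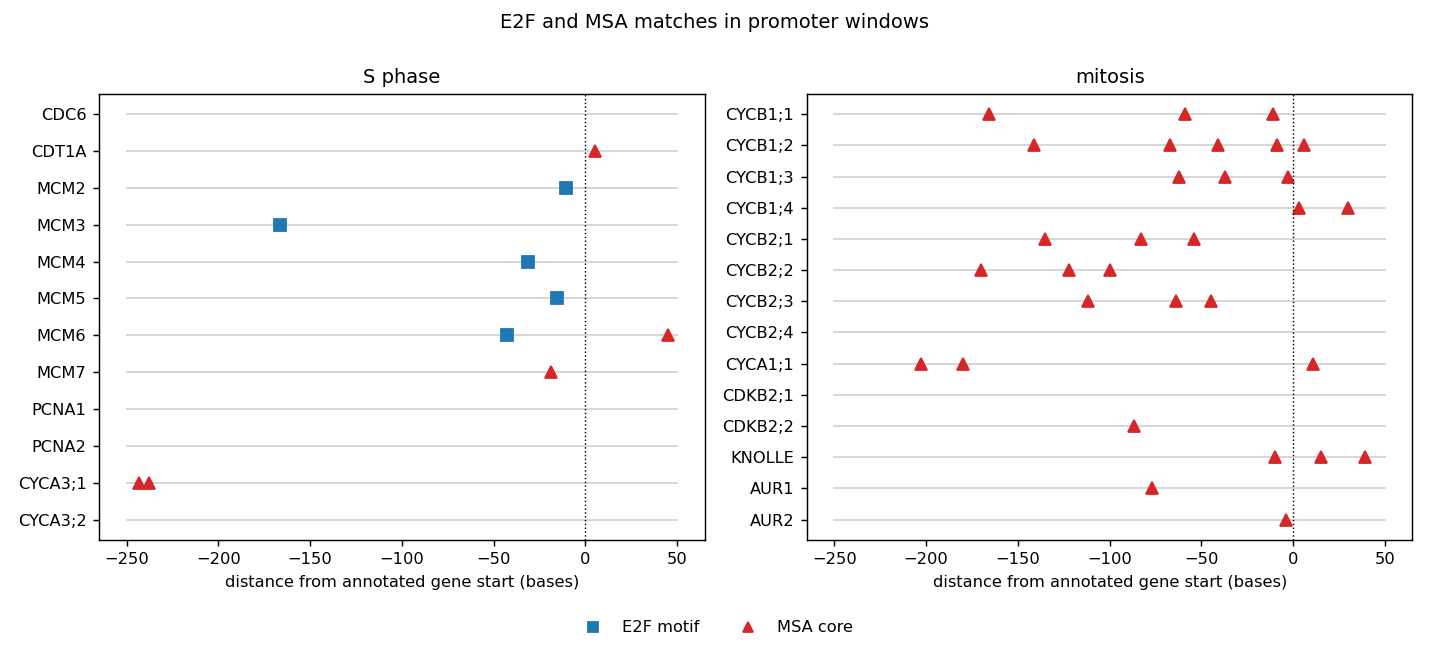
Positions of E2F matches (blue squares) and MSA cores (red triangles) in the promoter windows of the 12 S-phase genes (left) and the 14 mitotic genes (right), by distance in bases from the annotated gene start. E2F matches lie in 5 MCM windows and in 0 mitotic windows, and MSA cores lie in 12 of the 14 mitotic windows.

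No gene of the 41 passed the test between the genotypes, and most overlapped between the groups of libraries. All 41 passed the filter of a mean of 1 TPM, and limma with Benjamini-Hochberg adjustment over 18629 genes called 0 of them at 0.05, with 0.0429% of all tested genes called higher and 0.0268% called lower (8 and 5 genes, or 0.0698% in all). At an unadjusted p under 0.05, 0 were higher, against 3.22% of all genes, and 1 was lower, against 3.62% (6.84% in either direction). That gene was CDKB2;1, a kinase of mitosis, whose mean TPM in libraries labelled rap2.12-2 was 0.733 of the Col-0 mean. With the length trend subtracted, 4 were lower at that level (CDC6, CDT1A, CDKB2;1 and CDKB2;2), against 6.67% of all genes, and 1 was higher (CYCD3;2), against 5.62%. With median-of-ratios scaling 3 were lower (CDC6, MCM6 and CDKB2;1), against 4.92% of all genes, and 0 were higher, against 4.29%. Leaving out 1 library gave between 0 and 2 such genes. In 1 gene (PCNA1, the sliding clamp) all 3 libraries labelled rap2.12-2 lay above all 3 of Col-0, against 6.62% of all genes, and in 3 genes (CDKB2;1, CDKB2;2 and MCM6) they lay below, against 6.03% (12.7% in either direction). The counts without overlap are near the background of all genes. Overlap was read on TPM as deposited, in which Col-0 replicate 1 had the lowest listed sum.

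**Figure D2:**
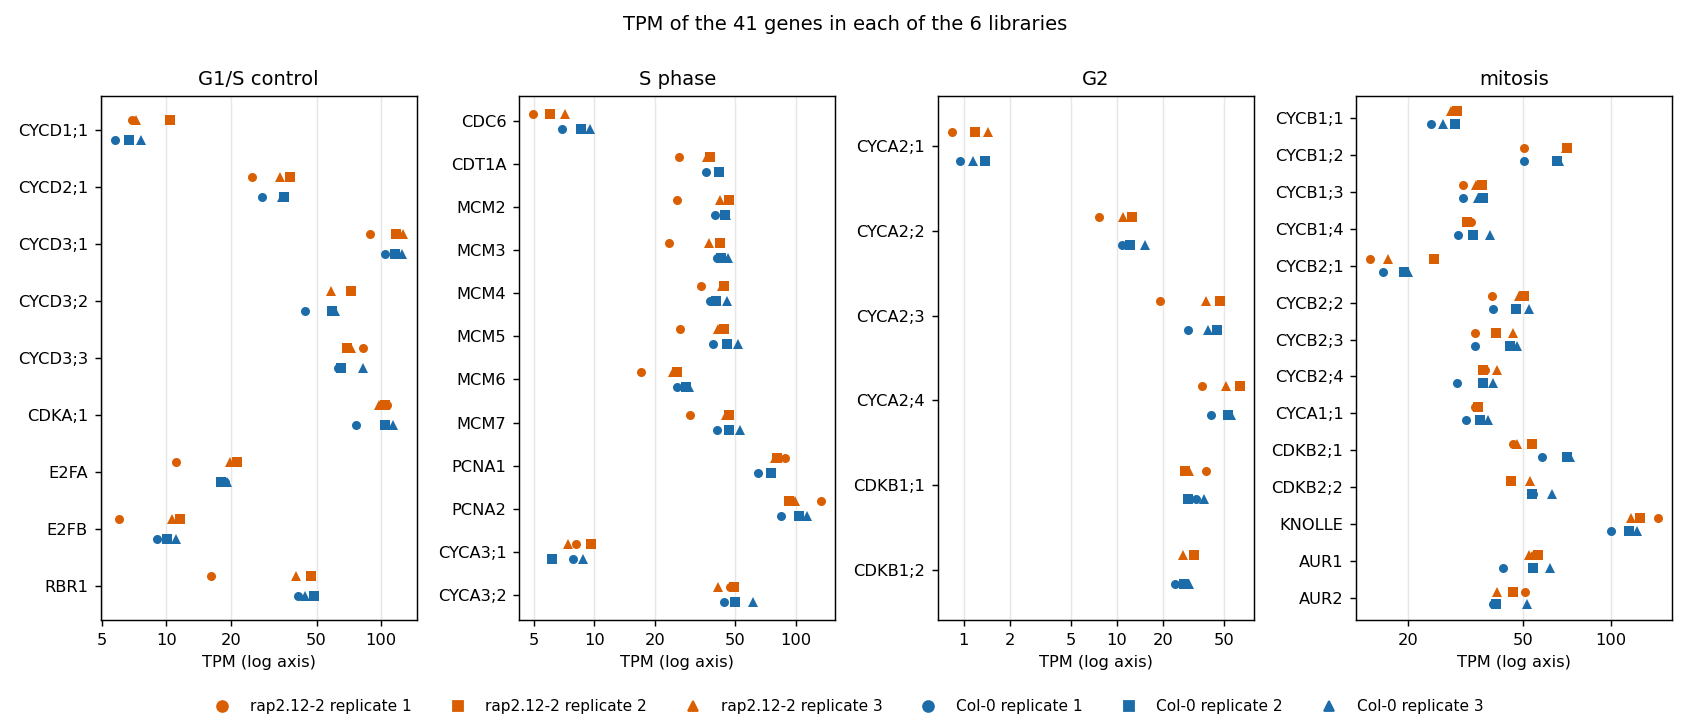
TPM (log axis) of each of the 41 genes, by class, in the 3 libraries labelled rap2.12-2 (orange, upper row of each gene) and the 3 Col-0 libraries (blue, lower row), with the marker shape giving the replicate number. Most rows overlap, rap2.12-2 replicate 1 lies apart at the low end for RBR1, E2FA, E2FB and the MCM genes, and CDKB2;1 shows a gap between its rows.

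The signs of the fold changes depended on single libraries. The log2 fold change on log2(TPM + 1), libraries labelled rap2.12-2 minus Col-0, was negative for 27 of 41 genes (65.9%), against 53.3% of all genes, and its median over the 41 was -0.03, against -0.02 over all genes. Without rap2.12-2 replicate 1 it was negative for 15 of 41 genes (36.6%), against 37.4% of all genes. The count was 17 on leaving out Col-0 replicate 3 (48.5% of all genes), 20 on leaving out its replicate 2 (46.6% of all genes) and 31 on leaving out its replicate 1 (65.8% of all genes). It stayed at 27 on leaving out rap2.12-2 replicate 2 (59.4% of all genes) or replicate 3 (55.2% of all genes), and median-of-ratios scaling gave 21 (51.2%, against 50.3% of all genes). The lowest of the 6 values belonged to rap2.12-2 replicate 1 for 22 genes (53.7%, against 43.0% of all genes) and to Col-0 replicate 1 for 16 genes (39.0%, against 34.6%).

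**Figure D3:**
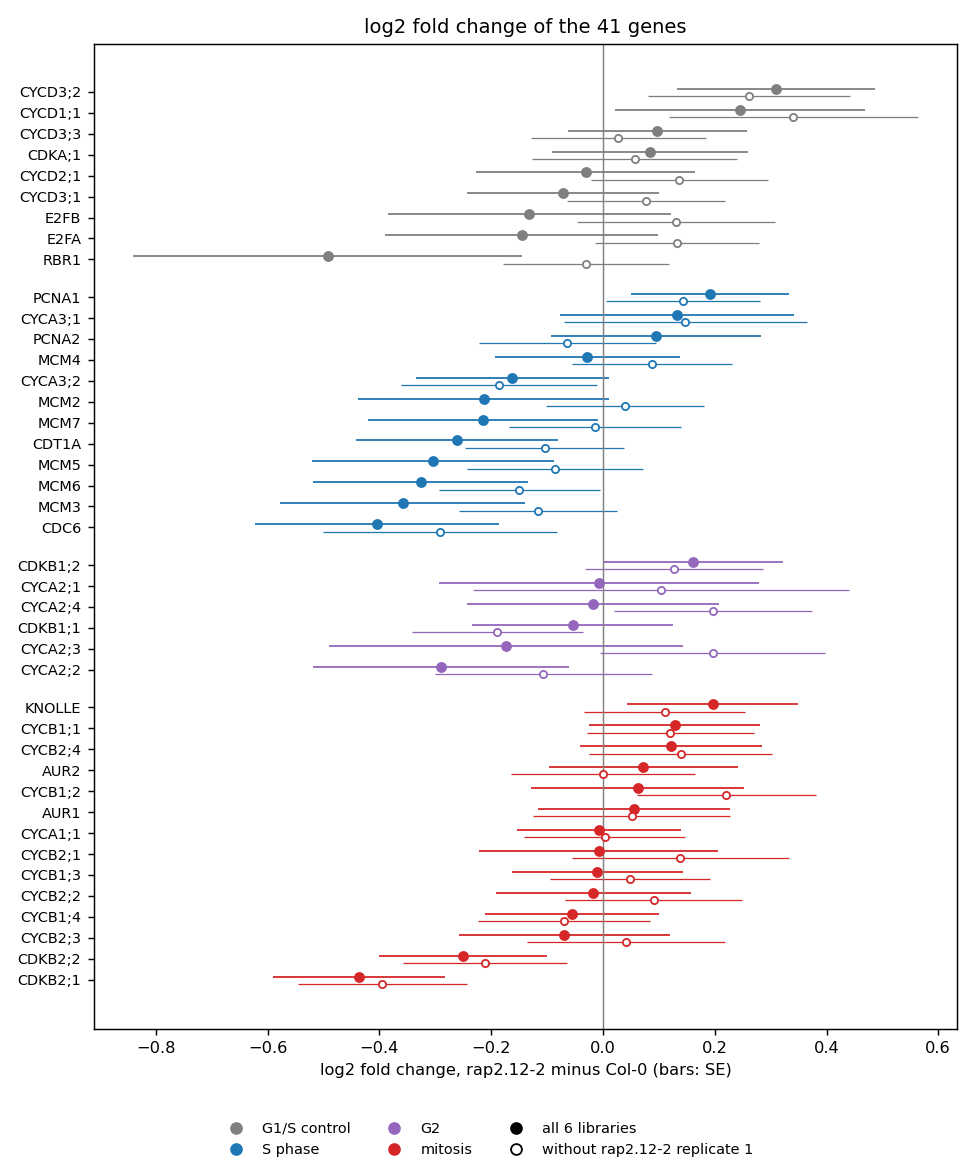
The log2 fold change of each gene, libraries labelled rap2.12-2 minus Col-0, with its limma standard error as a bar, from all 6 libraries (filled) and without rap2.12-2 replicate 1 (open), ordered within each class. The open circles of RBR1, E2FA, E2FB and the MCM genes lie nearer to or beyond 0, while CDKB2;1 stays at -0.44 and -0.40.

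The length dependence of rap2.12-2 replicate 1 ran through the 41 genes as well. Across them, the deviation of that library from the median of the other 5 had a Spearman correlation of -0.70 with transcript length, against -0.57 over 18135 protein-coding genes; in the other 5 libraries it lay between 0.07 and 0.31 for the 41 genes. These are correlations across genes of 1 library, given without a p because genes are not independent replicates. Transcripts of the 6 MCM genes have a median length of 2853 bases and those of the 14 mitotic genes 1701 bases, and the median deviations of rap2.12-2 replicate 1 were -0.66 and -0.10. RBR1, with the longest transcript of the 41 at 3850 bases, deviated by -1.40, while the short transcripts of PCNA1 (1130 bases) and PCNA2 (1183 bases) deviated by 0.22 and 0.43. Each class is therefore given with and without this library.

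**Figure D4:**
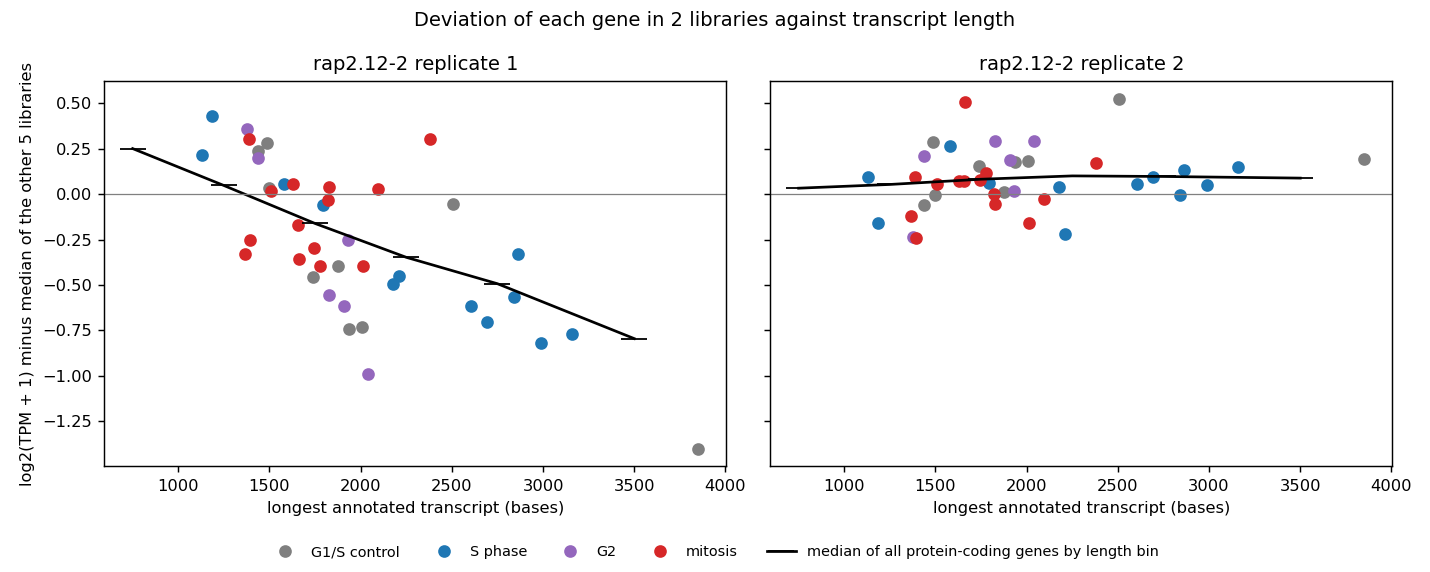
Deviation of each gene's log2(TPM + 1) in 1 library from the median of the other 5, against the length of its longest annotated transcript in bases, for rap2.12-2 replicate 1 (left) and rap2.12-2 replicate 2 (right); points are the 41 genes by class and the line joins medians of all protein-coding genes by length bin, the first bin (up to 1000) and the last (over 3000) being drawn at fixed positions. The points and the line descend with length on the left, to -1.40 for RBR1, and show no such descent on the right.

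S-phase genes were set against mitotic genes within each library. The mean log2(TPM + 1) of the 12 S-phase genes was 4.84, 5.20 and 5.12 in the libraries labelled rap2.12-2, against 5.06, 5.21 and 5.35 in Col-0. That of the 14 mitotic genes was 5.38, 5.51 and 5.46 in the libraries labelled rap2.12-2, against 5.28, 5.51 and 5.61 in Col-0. Both sets of values overlapped between the genotypes, and mitotic genes had the higher mean in all 6 libraries. S phase minus mitosis came to -0.53, -0.31 and -0.34 in the libraries labelled rap2.12-2 (mean -0.40 ± 0.12, SD, n = 3), against -0.22, -0.30 and -0.26 in Col-0 (mean -0.26 ± 0.04, SD, n = 3). The 2 groups of differences did not overlap, with the nearest libraries at -0.31 (rap2.12-2 replicate 2) and -0.30 (Col-0 replicate 2), and rap2.12-2 replicate 1 was the lowest. A background for such differences was not formed. The mean difference between genotypes was -0.14, and -0.07 without rap2.12-2 replicate 1. With the trend on transcript length subtracted from each library, it was -0.08, with -0.37 ± 0.02 in the libraries labelled rap2.12-2 and -0.29 ± 0.04 in Col-0 (SD, n = 3 each). The groups then did not overlap either, but the nearest libraries were at -0.34 (rap2.12-2 replicate 2) and -0.33 (Col-0 replicate 2). The 6 S-phase genes that are not MCM genes gave -0.43, -0.50 and -0.51 in the libraries labelled rap2.12-2, against -0.40, -0.48 and -0.41 in Col-0, which overlap. In bulk RNA, fewer cells in a stage of the cycle and less RNA per cell in that stage cannot be told apart.

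**Figure D5:**
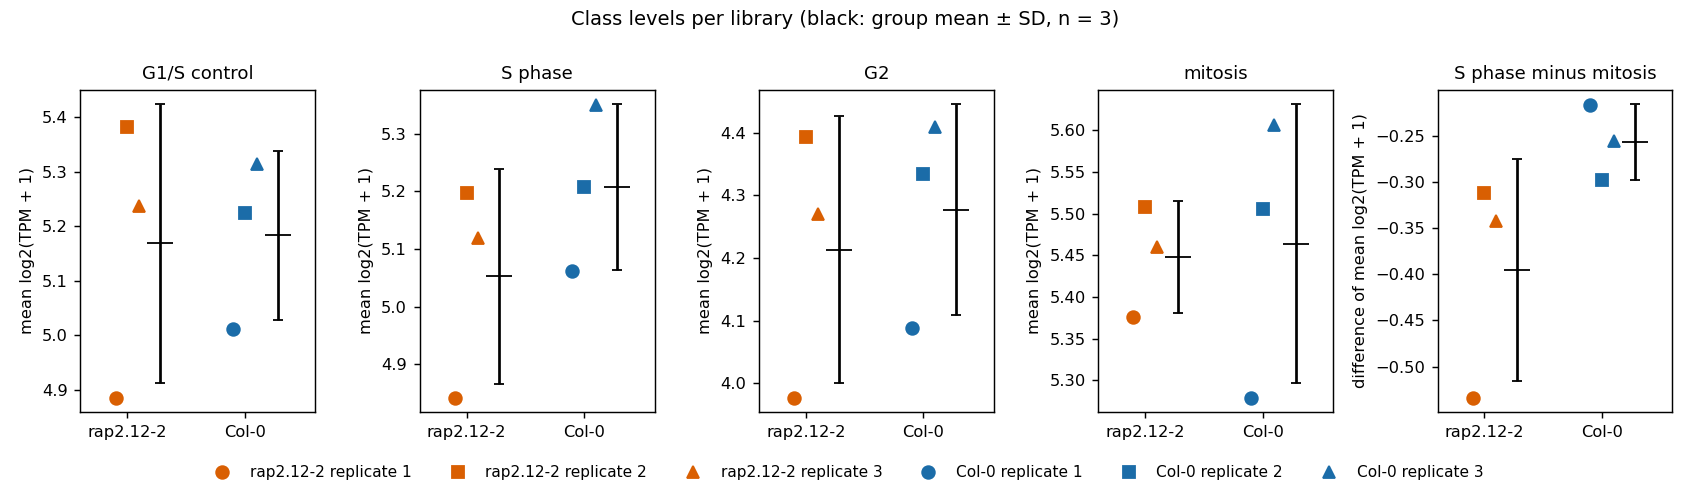
Mean log2(TPM + 1) of each class in each library, and the mean of S-phase genes minus that of mitotic genes (right panel), for the libraries labelled rap2.12-2 (orange, left in each panel) and Col-0 (blue, right), with black bars for the group mean ± SD (n = 3). The 4 classes overlap between the genotypes, and in the right panel the libraries labelled rap2.12-2 lie at -0.53 to -0.31 and those of Col-0 at -0.30 to -0.22.

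The G1/S control genes hold the entry switch. Of the 9, 0 were called, 5 had a log2 fold change under 0, and the class median was -0.03, or 0.13 without rap2.12-2 replicate 1. CYCD3;2 (AT5G67260; chromosome 5, 26836139 to 26839597, plus strand, TAIR10.1 here and throughout), a D-type cyclin that keeps cells dividing, had 71.9, 72.4 and 58.5 TPM in libraries labelled rap2.12-2, against 44.2, 59.0 and 60.7 TPM in Col-0. The log2 fold change of CYCD3;2 came to 0.31 (SE 0.18, limma adjusted p = 0.83), and its groups overlapped through replicate 3 of the libraries labelled rap2.12-2. CYCD3;1, the most abundant of the class, had 88.6, 117 and 126 TPM in libraries labelled rap2.12-2, against 104, 116 and 126 TPM in Col-0. CYCD3;3 had 81.9, 69.3 and 72.3 TPM in libraries labelled rap2.12-2, against 62.8, 65.0 and 81.9 TPM in Col-0. The 3 CYCD3 genes, which promote division in aerial tissues and the vascular cambium, thus ranged from 44.2 to 126 TPM per gene, and their log2 fold changes were -0.07, 0.31 and 0.10. CYCD1;1, the least abundant of the class, had 6.93, 10.4 and 7.22 TPM in libraries labelled rap2.12-2, against 5.76, 6.71 and 7.59 TPM in Col-0 (log2 fold change 0.24, limma adjusted p = 0.87). CYCD2;1 and CDKA;1, the kinase partner of the D-type cyclins, had log2 fold changes of -0.03 and 0.08.

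RBR1 (AT3G12280; chromosome 3, 3913349 to 3919359, minus strand), the brake on E2F factors, had the lowest fold change of the 41 genes and rested on 1 library. It had 16.1, 47.2 and 40.3 TPM in libraries labelled rap2.12-2, against 41.2, 48.7 and 44.1 TPM in Col-0. Replicate 1 of the libraries labelled rap2.12-2 was at 0.367 of the mean of the other 2 of its group, which lay within the Col-0 range or just under it. This gave a log2 fold change of -0.49 (SE 0.35, limma adjusted p = 0.85), and -0.03 without that library. With all 6 libraries and the length trend subtracted, it was -0.28. E2FA, an activating E2F factor and also lowest in rap2.12-2 replicate 1, had 11.1, 21.2 and 19.8 TPM in libraries labelled rap2.12-2, against 18.7, 18.0 and 19.2 TPM in Col-0 (log2 fold change -0.15, and 0.13 without rap2.12-2 replicate 1). E2FB, its close relative, had 6.0, 11.6 and 10.6 TPM in libraries labelled rap2.12-2, against 9.02, 10.06 and 11.1 TPM in Col-0. The same library was lowest for all 3 of these genes, while the other 5 libraries lay between 9.02 and 11.6 TPM for E2FB and between 18.0 and 21.2 TPM for E2FA. The transcripts of E2FA and E2FB are 1935 and 2009 bases long. With the length trend subtracted, their log2 fold changes were -0.11 and -0.09, against -0.15 and -0.13 before.

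Of the 12 S-phase genes, 0 were called and 9 had a log2 fold change under 0, the class median being -0.21, or -0.07 without rap2.12-2 replicate 1 and -0.13 with the length trend subtracted. CDC6 (AT2G29680; chromosome 2, 12689171 to 12693121, plus strand), which helps load the helicase and was the least abundant gene of the class, had 4.99, 6.04 and 7.18 TPM in libraries labelled rap2.12-2, against 6.91, 8.58 and 9.57 TPM in Col-0. This gave a log2 fold change of -0.41 (SE 0.22, limma adjusted p = 0.82), and the groups overlapped because replicate 3 labelled rap2.12-2 exceeded Col-0 replicate 1. Col-0 replicate 1 has the lowest listed sum (845341 TPM), and these values were not rescaled to a common sum. CDT1A, the loading partner of CDC6, had 26.3, 37.4 and 36.4 TPM in libraries labelled rap2.12-2, against 36.1, 41.8 and 41.7 TPM in Col-0 (log2 fold change -0.26, limma adjusted p = 0.85). Without rap2.12-2 replicate 1 the log2 fold changes of CDC6 and CDT1A were -0.29 and -0.10.

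The 6 MCM subunits, MCM2 to MCM7, form 1 ring, and their transcripts lay within 2.00 times of each other in every library. Their mean was 26.2, 41.6 and 38.9 TPM in libraries labelled rap2.12-2, against 37.3, 41.4 and 45.1 TPM in Col-0. Replicate 1 of the libraries labelled rap2.12-2 was the lowest of the 6 libraries for 6 of 6 subunits, and the means of the other 5 libraries overlapped. All 6 log2 fold changes were negative (median -0.26), 4 of 6 without rap2.12-2 replicate 1 (median -0.05), 5 of 6 without Col-0 replicate 3 and 5 of 6 with the length trend subtracted (median -0.15). MCM6 (AT5G44635; chromosome 5, 18006212 to 18010667, minus strand) had 17.1, 25.7 and 24.5 TPM in libraries labelled rap2.12-2, against 25.7, 28.6 and 29.6 TPM in Col-0 (log2 fold change -0.33, SE 0.19, limma adjusted p = 0.84). Its groups did not overlap, but only by the gap between 25.66 TPM in rap2.12-2 replicate 2 and 25.71 TPM in Col-0 replicate 1. MCM3 had 23.6, 42.3 and 37.2 TPM in libraries labelled rap2.12-2, against 40.8, 42.8 and 45.9 TPM in Col-0 (log2 fold change -0.36, limma adjusted p = 0.84). MCM5 had 26.6, 44.0 and 41.1 TPM in libraries labelled rap2.12-2, against 39.0, 45.9 and 51.5 TPM in Col-0 (log2 fold change -0.30, limma adjusted p = 0.85). Both overlapped between the genotypes, only through Col-0 replicate 1, the library of lowest listed sum. The log2 fold changes of MCM2, MCM4 and MCM7 were -0.21, -0.03 and -0.21.

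Within the ring, MCM6 was the least abundant subunit per length in all 6. The most abundant subunit exceeded it 2.00, 1.83 and 1.84 times in the libraries labelled rap2.12-2, against 1.59, 1.63 and 1.79 times in Col-0. These ranges did not overlap, but only by the gap between 1.79 and 1.83, and a background for such ratios was not formed. The most abundant subunit also differed, being MCM4 in rap2.12-2 replicate 1, MCM3 in Col-0 replicate 1 and MCM7 elsewhere. PCNA2 (AT2G29570; chromosome 2, 12649906 to 12651753, minus strand), which with PCNA1 encodes the sliding clamp, was the most abundant S-phase gene and had 134, 92.7 and 99.1 TPM in libraries labelled rap2.12-2, against 85.0, 103 and 114 TPM in Col-0. PCNA1, picked out after its values were seen, had 88.3, 81.0 and 78.6 TPM in libraries labelled rap2.12-2, against 65.3, 75.8 and 75.8 TPM in Col-0. The groups of PCNA1 did not overlap and those of PCNA2 did, and neither passed the test (log2 fold changes 0.19 and 0.09, limma adjusted p = 0.86 and 0.93). The library labelled rap2.12-2 replicate 1 was the highest for both, the reverse of its place for the MCM genes. The sum of both PCNA transcripts over the MCM mean was 8.47, 4.17 and 4.57 in the libraries labelled rap2.12-2, against 4.03, 4.33 and 4.22 in Col-0, so that replicate 1 alone lay apart. CYCA3;1 and CYCA3;2, A-type cyclins of S phase, had log2 fold changes of 0.13 and -0.16. PCNA2 shares 279 bases with a gene on the opposite strand and MCM7 shares 437, and whether counting used strand is not given in the sources used here.

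The G2 genes were the least abundant class on average, and 0 of 6 were called. Their class median was -0.04, or 0.11 without rap2.12-2 replicate 1. CYCA2;2 (AT5G11300; chromosome 5, 3601513 to 3605350, minus strand) had 7.66, 12.5 and 10.9 TPM in libraries labelled rap2.12-2, against 10.8, 12.3 and 15.3 TPM in Col-0 (log2 fold change -0.29, limma adjusted p = 0.87). CYCA2;3, which restrains the switch to endoreduplication, had 19.1, 47.1 and 38.3 TPM in libraries labelled rap2.12-2, against 28.9, 44.7 and 39.0 TPM in Col-0. Its log2 fold change was -0.17, and 0.20 without rap2.12-2 replicate 1, the lowest library. CYCA2;4, the most abundant of the class, had 36.1, 63.1 and 51.3 TPM in libraries labelled rap2.12-2, against 40.9, 53.3 and 55.6 TPM in Col-0. CYCA2;1 was the least abundant of all 41 genes, with 0.840, 1.19 and 1.45 TPM in libraries labelled rap2.12-2, against 0.950, 1.38 and 1.16 TPM in Col-0. All 4 CYCA2 genes had their lowest value in rap2.12-2 replicate 1 and overlapped between the genotypes.

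CDKB1;1 and CDKB1;2 encode the B1-type kinases, which are found in plants and pair with CYCA2 cyclins. CDKB1;1 had 38.2, 27.7 and 29.6 TPM in libraries labelled rap2.12-2, against 32.8, 29.2 and 36.7 TPM in Col-0. CDKB1;2 had 31.7, 31.8 and 27.2 TPM in libraries labelled rap2.12-2, against 23.9, 27.4 and 29.6 TPM in Col-0. Both overlapped (log2 fold changes -0.05 and 0.16, limma adjusted p = 0.96 and 0.88). The ratio of CDKB1;1 to CDKB1;2 was 1.21, 0.869 and 1.09 in the libraries labelled rap2.12-2, against 1.37, 1.07 and 1.24 in Col-0, which also overlap. CDKB1;2 shares 281 bases with a gene on the opposite strand.

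Of the 14 mitotic genes, 0 were called, 8 had a log2 fold change under 0, and the class median was -0.01, or 0.05 without rap2.12-2 replicate 1; under median-of-ratios and quantile scaling 4 were negative. CDKB2;1 (AT1G76540; chromosome 1, 28720328 to 28722550, minus strand), a B2-type kinase of mitosis that also acts in the shoot meristem, had 46.1, 53.3 and 47.5 TPM in libraries labelled rap2.12-2, against 58.0, 70.4 and 72.0 TPM in Col-0. All 3 libraries labelled rap2.12-2 lay below all 3 of Col-0, with a gap from 53.3 to 58.0 TPM. The means were 49.0 ± 3.83 TPM in libraries labelled rap2.12-2 and 66.8 ± 7.66 TPM in Col-0 (SD, n = 3 each). This gave a log2 fold change of -0.44 (SE 0.15, limma adjusted p = 0.56), which missed the threshold. Over the alternatives run the log2 fold change lay between -0.53 and -0.38 and the limma adjusted p between 0.084 and 0.93. By exact permutation over all 6 libraries, two-sided, p = 0.10, which is the lowest value that groups of 3 can reach. The transcript of CDKB2;1 is 1367 bases long. Its lowest value was in rap2.12-2 replicate 1, and without that library its log2 fold change was -0.40. With the length trend subtracted, the log2 fold change of CDKB2;1 was -0.48 (SE 0.08, limma adjusted p = 0.084). Beyond that fit, the part of transcript length in this difference was not tested.

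CDKB2;2 (AT1G20930; chromosome 1, 7292389 to 7294746, minus strand), the paralogue of CDKB2;1, had 44.9, 45.2 and 52.5 TPM in libraries labelled rap2.12-2, against 54.1, 53.6 and 62.4 TPM in Col-0. Its groups did not overlap either, for a log2 fold change of -0.25 (SE 0.15, limma adjusted p = 0.84). The 2 transcripts are 86.9% identical over 925 bases, so that reads from those stretches may be divided between them, and CDKB2;2 shares 192 bases with a gene on the opposite strand. Their upstream windows differ: the CDKB2;2 window holds the MSA core printed with the mitotic stretches, at positions -89 to -85 from the start, and the CDKB2;1 window holds 0 matches.

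KNOLLE (AT1G08560; chromosome 1, 2709525 to 2711000, minus strand), the syntaxin that fuses vesicles into the new cell plate at cytokinesis, was the most abundant of the 41 genes. It had 145, 125 and 117 TPM in libraries labelled rap2.12-2, against 99.8, 115 and 123 TPM in Col-0. The groups overlapped (log2 fold change 0.20, SE 0.15, limma adjusted p = 0.87), and KNOLLE shares 464 bases with a gene on the opposite strand. The ratio of CDKB2;1 to KNOLLE, formed after the values were seen, was 0.318, 0.425 and 0.406 in the libraries labelled rap2.12-2, against 0.582, 0.612 and 0.586 in Col-0, with no overlap. CDKB2;1 had the lowest log2 fold change of the 14 mitotic genes (-0.44) and KNOLLE the highest. The choice of this pair therefore favoured a gap, and the ratio adds no separate support. Both transcripts are of similar length (1367 and 1386 bases). The Aurora kinases AUR1 and AUR2, which act at the spindle and the cell plate, had log2 fold changes of 0.06 and 0.07. AUR1 exceeded AUR2 by 1.08, 1.22 and 1.28 times in the libraries labelled rap2.12-2, against 1.08, 1.34 and 1.20 times in Col-0, though AUR2 shares 877 bases and AUR1 290 bases with a gene on the opposite strand.

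The 8 B-type cyclins, activators of mitotic CDKs that are destroyed as mitosis ends, had log2 fold changes within -0.07 and 0.13. CYCB1;1 (AT4G37490; chromosome 4, 17621886 to 17624308, minus strand), widely used as a reporter of G2 and mitosis, had 29.4, 29.6 and 28.2 TPM in libraries labelled rap2.12-2, against 24.1, 29.2 and 26.5 TPM in Col-0 (log2 fold change 0.13, limma adjusted p = 0.89). CYCB2;4 had 37.0, 36.3 and 40.7 TPM in libraries labelled rap2.12-2, against 29.6, 36.3 and 39.2 TPM in Col-0 (log2 fold change 0.12, limma adjusted p = 0.90). CYCB2;1, the least abundant mitotic gene, had 14.9, 24.7 and 17.1 TPM in libraries labelled rap2.12-2, against 16.4, 19.4 and 20 TPM in Col-0. All 3 overlapped between the genotypes. The log2 fold changes were 0.06, -0.01 and -0.06 for CYCB1;2, CYCB1;3 and CYCB1;4, -0.02 and -0.07 for CYCB2;2 and CYCB2;3, and -0.01 for CYCA1;1, an A-type cyclin of mitosis. CYCB1;2 and CYCB2;3 are uncertain because each has a stretch over 95% identical to another locus (97.7% over 390 bases of CYCB1;5, and 97.3% over 583 bases of AT1G20590).

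Further genes of the cycle were listed by their roles. Of 68, 66 passed the filter and 0 were called, and the log2 fold change was negative for 48 (72.7%, against 53.3% of all genes) with a median of -0.10. Without rap2.12-2 replicate 1 it was negative for 33 of 66, against 37.4% of all genes, with a median of 0.01. At an unadjusted p under 0.05, 1 was lower, against 3.62% of all genes, and 0 were higher, against 3.22%. Among 24 further replication genes (17 negative, median -0.07) that gene was AT1G07270, annotated as a Cdc6 protein, with 1.08, 1.93 and 2.18 TPM in libraries labelled rap2.12-2, against 3.04, 3.05 and 3.68 TPM in Col-0. Its groups did not overlap (log2 fold change -0.66, SE 0.27, limma adjusted p = 0.68), and without rap2.12-2 replicate 1 the log2 fold change was -0.48. TIL1, a catalytic subunit of DNA polymerase epsilon, had 4.77, 15.4 and 15.2 TPM in libraries labelled rap2.12-2, against 14.7, 18.0 and 17.6 TPM in Col-0, and its transcript is 8576 bases long. Without rap2.12-2 replicate 1, its log2 fold change of -0.62 became -0.12.

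Of 10 transcription factors of the cycle, 9 had a log2 fold change under 0 (median -0.13), against 53.3% of all genes, or 5 without rap2.12-2 replicate 1 (median -0.02), against 37.4%. With the length trend subtracted 10 of the 10 were negative (median -0.11, against 49.9% of all genes), and without both replicates 1 the count was 9 (median -0.12, against 55.0% of all genes). MYB3R1, which binds MSA elements, had 15.8, 28.2 and 29.1 TPM in libraries labelled rap2.12-2, against 27.5, 33.9 and 34.0 TPM in Col-0 (log2 fold change -0.41, limma adjusted p = 0.84, and -0.14 without rap2.12-2 replicate 1). DEL3, an atypical E2F repressor, had a log2 fold change of -0.31 (limma adjusted p = 0.83), and -0.27 without that library. Of the 15 other cyclins, CDKs and CDK partners that passed the filter, 10 were negative (median -0.12), and the smallest p values belonged to CYCB3;1 (-0.50, limma adjusted p = 0.84) and CYCB1;5 (-0.62, limma adjusted p = 0.85). Without rap2.12-2 replicate 1 the log2 fold changes of CYCB3;1 and CYCB1;5 were -0.14 and -0.17. CYCD7;1 and CYCA3;3 were listed at 0 in all 6 libraries. Of 17 other mitotic genes, 12 were negative (median -0.08), and the smallest p values belonged to WYR, an inner centromere protein (-0.45, and 0.02 without rap2.12-2 replicate 1), and UVI4, an inhibitor of the anaphase-promoting complex (-0.21, and -0.17 without that library).

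The summed levels of markers of tissues that callus can hold are given as ranges over the 3 libraries of each genotype. The 7 xylem markers summed to 267 to 297 TPM in libraries labelled rap2.12-2 and 175 to 220.4 TPM in Col-0, and the 6 callus and root stem cell markers to 229.9 to 326 TPM in libraries labelled rap2.12-2 and 360.1 to 398 TPM in Col-0. The summed ranges no longer stood apart without XCP1 and XCP2 in the xylem list, or without WOX11 in the other list. These markers were picked out after their values were seen. Without XCP1 and XCP2, proteases of xylem vessels, the other 5 xylem markers summed to 43.4, 66.4 and 74.2 TPM in libraries labelled rap2.12-2 and 40.9, 51.3 and 53.2 TPM in Col-0. These overlap only through rap2.12-2 replicate 1, at 43.4 TPM. With all 6 libraries, the log2 fold changes of IRX3, CESA4, IRX1 and VND6 were 0.37, 0.37, 0.22 and 0.24, and that of VND7 was -0.09. Each of these genes overlapped between the genotypes. Leaving rap2.12-2 replicate 1 out, the values were 0.63, 0.57, 0.56 and 0.54, and -0.21 for VND7. The median over all genes was then 0.06. Without WOX11, the other 5 callus and root stem cell markers summed to 157 to 223 TPM in libraries labelled rap2.12-2 and 167 to 206 TPM in Col-0, which also overlap. The 3 cambium markers summed to 186 to 339 TPM in libraries labelled rap2.12-2 and 304 to 402 TPM in Col-0, and the lists for phloem, epidermis and endodermis (3 markers each) overlapped too. Of all these markers 0 were called, and CASP1 was listed at 0 in 3 of 6 libraries. The part of these marker differences in the levels of CDKB2;1, CDKB2;2, MCM6 and PCNA1 was not tested.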

How the data were processed

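Per the labels' protocols, callus RNA went into TruSeq libraries. The authors deposited 1 table of TPM, already scaled by transcript length and library total, with 6 libraries as columns and 31305 loci. Its making involved RSEM 1.3.1, STAR 2.7.10a and the TAIR10 build in roles left unstated, per the submitters' processing notes, and strand handling is not given in the sources used here. The 41 genes and all lists of related genes and markers were chosen with earlier results of these data known.

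The 18629 genes averaging 1 TPM or more were taken as log2(TPM + 1), which understates changes of low genes, and compared in R 4.3.3 by limma 3.58.1 (eBayes with trend, Benjamini-Hochberg adjustment over all kept genes, threshold 0.05). The step was run on simulated data, which had no length trend and only changes larger than those reported for the cycle genes. That run therefore does not bear on changes of this size or on a library that stands apart by length. Values in every library are given for the 5 genes with the smallest limma p in each class and for its most and least abundant gene; of each related list, the 2 with the smallest p are named. E2FB, PCNA1, WOX5 and PLT1 were added after their values were seen.

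Promoter windows, transcript lengths and overlaps came from RefSeq TAIR10.1, to which 31217 loci matched; the table holds no coordinates. Near-identical stretches were sought with BLAST 2.17.0 (at least 100 bases at 95%). Alternatives were a pseudocount of 0.5 or 0.1, a filter at 5 TPM or none, other scalings, no variance trend, a replicate block, libraries left out, and, added after seeing the data, a lowess trend on transcript length subtracted within each library. A planned comparison of protein motifs was not run, since no protein sequences were used here.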

Additional observations from a re-analysis of the deposited data

How the results depend on the processing

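With 3 libraries a group and depth unknown, 0 of the 41 genes and 0 of the related genes were called under all 18 alternatives, and the smallest limma adjusted p among the 41 lay between 0.084 (length trend subtracted) and 0.93 (without Col-0 replicate 3). Whether replicate numbers pair the libraries could not be decided, since deviations from the mean of a group of 3 sum to 0. Those deviations correlated at 0.20, 0.35 and -0.11 between same-numbered libraries and at -0.34 to 0.23 between differently numbered ones. A replicate block gave 2 genes called higher and 2 lower over the whole table, and 0.37 as the smallest limma adjusted p of the 41. The whole-table counts, 8 higher and 5 lower in the fit reported, moved by over 1.5 times with no filter (3 higher, 3 lower), no variance trend (2 and 3), without both replicates 1 (0 and 0) and with the length trend subtracted (27 and 11), and median-of-ratios scaling gave 3 higher. Leaving out 1 library gave 2 to 23 higher and 2 to 9 lower. The causes of these shifts were not tested. Class medians over the libraries left out lay between -0.13 and 0.13 for G1/S control, -0.34 and -0.07 for S phase, -0.12 and 0.11 for G2, and -0.08 and 0.06 for mitosis, and S phase minus mitosis between -0.18 and -0.07. Of the 41 log2 fold changes, none of them called, 14 changed sign without both replicates 1, 16 without rap2.12-2 replicate 1, 10, 7 and 4 without Col-0 replicates 3, 2 and 1, 2 each without rap2.12-2 replicates 2 and 3, 6 with median-of-ratios scaling, 7 with quantile normalization and 4 with the length trend subtracted. Among the genes that the rule gives in every library, those were, without both replicates 1, CYCA2;3 (0.024), CYCA2;4 (0.062), CYCB2;1 (0.055), PCNA2 (-0.18), E2FA (0.13), CYCD3;3 (-0.044), CYCD3;1 (0.0055) and CYCA2;1 (0.031). With median-of-ratios scaling they were CYCA2;4 (0.0025), CYCB2;1 (0.012) and CYCA2;1 (0.002), with quantile normalization CYCA2;4 (0.0068), CYCB2;1 (0.062) and CYCA2;1 (0.052), and with the length trend subtracted CYCA2;4 (0.0001) and CYCA2;1 (0.023). Leaving out 1 library, CYCA2;3 ran from -0.43 to 0.20, CYCA2;4 from -0.20 to 0.20, CYCB2;1 from -0.21 to 0.14, PCNA2 from -0.064 to 0.20, E2FA from -0.31 to 0.13, CDKB1;1 from -0.19 to 0.037, CYCD3;1 from -0.17 to 0.078 and CYCA2;1 from -0.10 to 0.10. Of the genes that the rule gives in every library, CDKB2;1 kept a negative sign under every alternative run. So did CDC6, CDT1A, MCM3, MCM5, MCM6, CYCA2;2, CDKB2;2 and RBR1, of which RBR1 came nearest to 0, at -0.03. A positive sign was kept throughout by CYCD1;1, CYCD3;2, CDKB1;2, CYCB1;1, CYCB2;4 and KNOLLE, of which CYCB2;4 came nearest to 0, at 0.0085. Genes outside that rule are not listed here.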
